A study of Homo sapiens with 6 samples.

Results

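The measurements concern accessible chromatin around TAL1, LMO2, LYL1 and LDB1, 4 human genes whose proteins work together in one transcription complex of blood cells. Their sites were chosen by position alone: every site of the authors' table that overlapped the RefSeq interval of one of these genes, or the 50 kb on either side of it, was taken. The rule gave 90 of the 181135 listed sites, with 24 at TAL1, 21 at LMO2, 27 at LYL1 and 18 at LDB1. The windows also hold neighbouring genes, among them STIL and PDZK1IP1 at TAL1, NFIX, TRMT1, NACC1, STX10 and IER2 at LYL1, and ARMH3, HPS6, PPRC1 and NOLC1 at LDB1. A site is therefore assigned to a locus, not to the regulation of the gene that names it.

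Accessibility was measured by ATAC-seq, in which an enzyme cuts DNA that is not packed away and tags the ends for sequencing, so that a site with more reads was more open. The cells were K562, a human chronic myelogenous leukaemia line that is labelled wild type and expresses many erythroid genes. They were exposed to 25 nM phorbol 12-myristate 13-acetate (PMA), a protein kinase C activator, for 0, 6 or 72 h, and the labels describe the state reached as megakaryocyte-like. Each time point had 2 libraries, and since nothing says that these came from separate cultures, the p-values measure only the spread between these libraries, which may be technical.

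TAL1 is a basic helix-loop-helix factor that pairs with E proteins and binds E-box DNA, and LYL1 is its closest relative. LMO2 binds no DNA itself and bridges the helix-loop-helix pair to GATA factors, while LDB1 holds LMO2 and associates with itself, which lets it join distant elements in a chromatin loop. The complex acts in blood stem cells, erythroid cells and megakaryocytes, and enhancers of TAL1 are known downstream of the gene, among them one described in stem cells and a more distant one described in erythroid cells. Which of the sites below correspond to those elements was not determined.

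The promoter windows of 3 of the genes are shown because the sites over them are the ones whose changes are compared below, and because a GATA motif separates 2 of them from the third. Each runs 5′ to 3′ on the minus strand, from 250 bases before to 50 bases after the gene start, and is RefSeq sequence of GRCh38.p14. Capitals mark a match to the GATA motif AGATAA, which reads TTATCT where it lies on the other strand. In order, the windows are chr1:47232286-47232585 for TAL1, chr19:13102809-13103108 for LYL1 and chr10:102114953-102115252 for LDB1.
TAL1: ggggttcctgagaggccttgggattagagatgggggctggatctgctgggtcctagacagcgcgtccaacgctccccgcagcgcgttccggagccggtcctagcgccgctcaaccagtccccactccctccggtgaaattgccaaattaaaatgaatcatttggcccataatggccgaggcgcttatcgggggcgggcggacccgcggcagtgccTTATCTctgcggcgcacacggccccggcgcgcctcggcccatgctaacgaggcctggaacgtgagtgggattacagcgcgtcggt
LYL1: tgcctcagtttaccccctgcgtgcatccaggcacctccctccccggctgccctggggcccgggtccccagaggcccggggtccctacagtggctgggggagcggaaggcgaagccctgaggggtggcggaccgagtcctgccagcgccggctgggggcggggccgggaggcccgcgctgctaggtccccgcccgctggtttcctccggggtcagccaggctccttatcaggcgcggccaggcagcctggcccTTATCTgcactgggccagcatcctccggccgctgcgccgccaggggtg
LDB1: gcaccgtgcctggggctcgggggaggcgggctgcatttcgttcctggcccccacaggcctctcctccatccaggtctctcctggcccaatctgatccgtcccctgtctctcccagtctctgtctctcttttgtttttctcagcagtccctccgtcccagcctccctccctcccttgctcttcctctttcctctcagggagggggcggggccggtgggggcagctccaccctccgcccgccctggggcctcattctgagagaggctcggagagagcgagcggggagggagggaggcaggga

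AGATAA was found on the opposite strand at bases 216 to 221 of the TAL1 window and at bases 253 to 258 of the LYL1 window. It was not found in the LDB1 window or in a second TAL1 window (chr1:47231666-47231965). Among 22198 promoter windows of the same length, 7.91% held AGATAA on either strand. The other motifs searched on both strands were the E-boxes CAGCTG (18.0% of all windows) and CAGGTG (19.9%), the AP-1 motif TGAGTCA (4.01%), the ETS motif ACTTCC (23.9%) and a composite of CTG, 8 bases of any kind and AGATAA (0.243%), which contains the GATA motif. None of these 5 was present in the 4 windows. A match to these letters is a description of the sequence and was not tested as a binding site. Other forms of the GATA motif were not searched. LMO2 is represented by its sites only.

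Library totals over all listed sites ran from 12258890 counts (6 h, replicate 1) to 35548737 counts (72 h, replicate 2). All values below are CPM, the reads of a site relative to the TMM-scaled library total, unless another scale is named. A call of a change means an adjusted p under 0.05 in edgeR's quasi-likelihood test, with Benjamini-Hochberg adjustment over 177759 tested sites. The scaling moved the median log2 fold change of all sites at 72 h against 0 h, which was 0.29 with TMM and 0.11 with RLE, the size factors of DESeq2. It was 0.79 with total counts, −0.03 with loess offsets and 1.26 with TMM factors computed on the sites that had a peak in each of the 6 libraries ("shared-peak factors"). Each direction given below is therefore relative to the TMM scale. Of the genes typical of K562 and erythroid cells, HBG1, HBE1 and EPOR had a site at their start, with means from 4.70 to 44.9 CPM at 0 h. No site was listed at the KLF1 start, nor at the starts of CD3E, ALB and NEUROD1, which mark other cell types. PTPRC and COL1A1, taken for comparison, had sites of 2.33 and 21.4 CPM at 0 h.

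At 6 h, 43 of the 90 sites (47.8%) were called changed, against 40.1% of all tested sites. Of these, 15 were higher (16.7% of the members, against 23.4% of all sites) and 28 lower (31.1%, against 16.8%). At 72 h against 0 h, 72 sites (80.0%) were called, against 67.4% of all sites, with 22 higher (24.4%, against 38.2%) and 50 lower (55.6%, against 29.2%). The 72 h libraries differed from the 6 h libraries at 50 sites (55.6%, against 42.9%), with 13 higher at 72 h (14.4%, against 22.1%) and 37 lower (41.1%, against 20.9%). Over the time course 77 of the 90 sites changed, against 72.0% of all sites. The median log2 fold change of the 90 sites was −0.13 at 6 h and −0.81 at 72 h, beside 0.05 and 0.29 over all tested sites. In bulk libraries, fewer cells with an open site and less access per cell cannot be told apart.

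The share of members called higher or lower moved with the scaling. At 72 h against 0 h, 18 sites were higher and 56 lower under RLE, 28 and 35 with total counts, 22 and 37 with loess offsets, and 38 and 20 with shared-peak factors. At 6 h against 0 h these pairs were 13 and 35, 20 and 23, 14 and 27, and 25 and 15, and at 72 h against 6 h they were 13 and 38, 21 and 22, 17 and 16, and 32 and 8. Under all 5 scalings, 12 of the 15 higher and 15 of the 28 lower calls at 6 h were kept, as were 17 of the 22 higher and 15 of the 50 lower calls at 72 h. Counting only calls made in the same direction under all 5 scalings, with DESeq2 and without each library in turn, 8 sites rose and 13 fell at 6 h, and 16 rose and 15 fell at 72 h. By locus, these were 5 rises and 3 falls at TAL1 at 6 h, 2 and 1 at LMO2, 1 and 6 at LYL1, and 3 falls at LDB1. At 72 h they were 6 and 4 at TAL1, 5 and 1 at LMO2, 5 and 4 at LYL1, and 6 falls at LDB1. The share of all tested sites that met the same criteria was not determined, so these counts have no background beside them. Without 6 h replicate 2, which is the deepest 6 h library, 9 sites were higher at 6 h, and without 0 h replicate 2, 18 were lower. Without 72 h replicate 2, 30 sites differed between 72 h and 6 h.

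**Figure D1:**
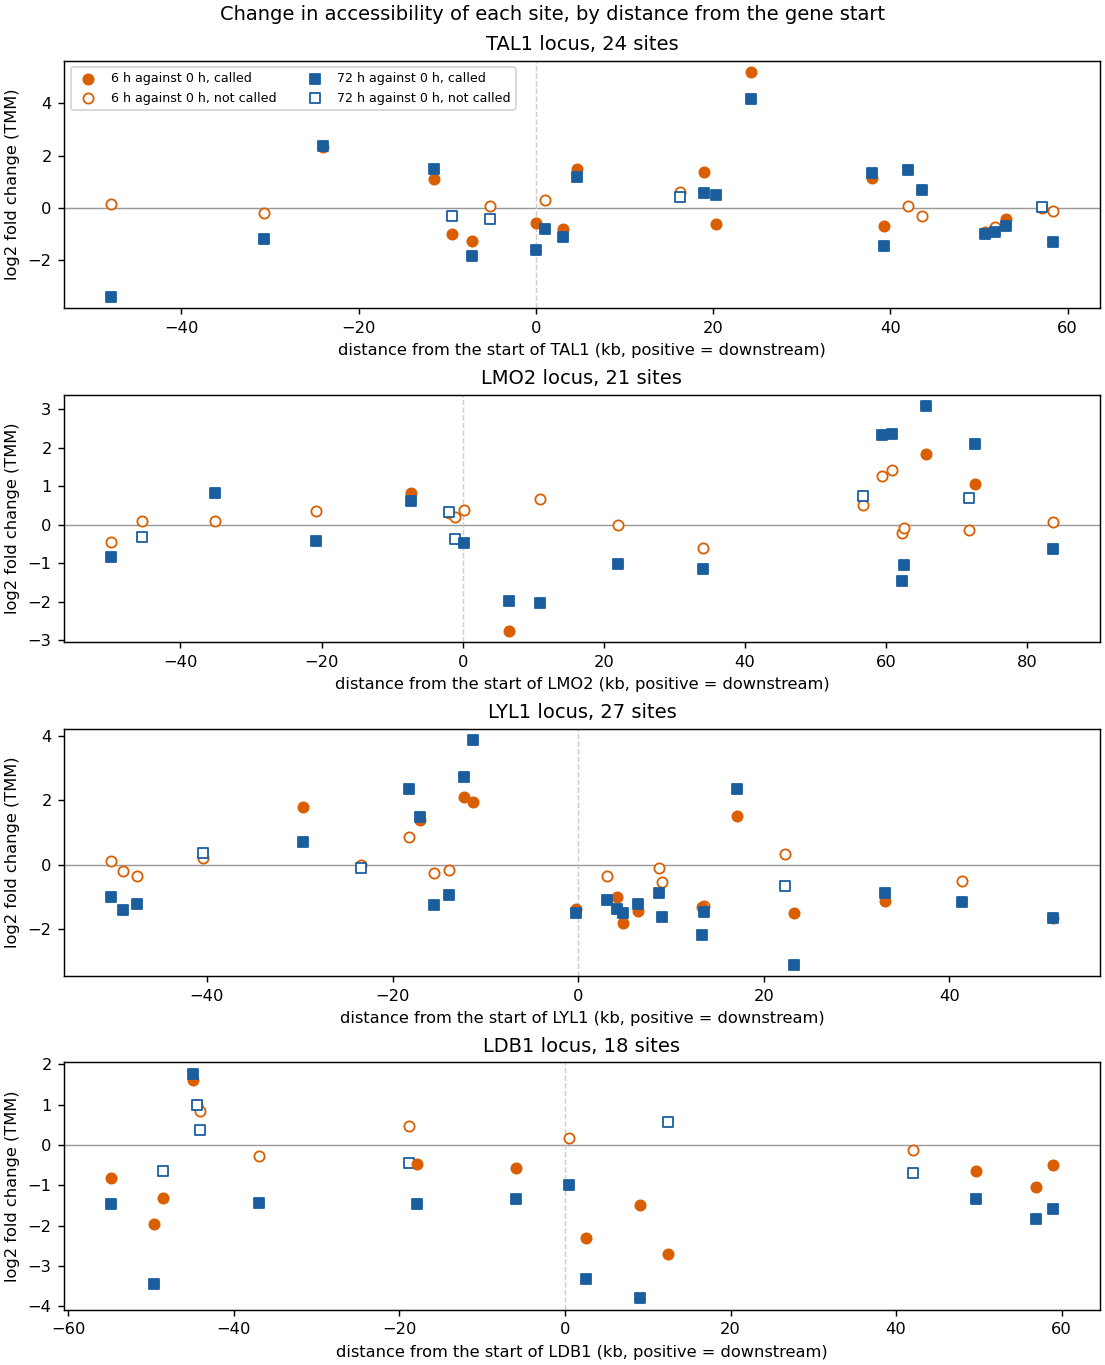
Log2 fold change on the TMM scale (vertical axis) of each of the 90 sites against its distance from the start of the gene in kb (horizontal axis, positive downstream), one panel per locus, for 6 h against 0 h (circles) and 72 h against 0 h (squares). Filled symbols are called at an adjusted p under 0.05. The highest symbols at TAL1 are those of the site at +24.3 kb, and at LDB1 only 1 site is called higher at either time.

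The TAL1 locus held the site that rose most at 6 h. It lies downstream of the gene at +24.3 kb (chr1:47207629-47208393), between genes. Reads there came to 1.88 and 1.48 CPM at 0 h, 59.0 and 62.2 CPM at 6 h and 25.0 and 34.8 CPM at 72 h. Both 0 h libraries had few reads and were far below the other 4, and the 72 h libraries lay below the 6 h libraries. By the edgeR fit, from which all fold values of single sites are taken, the 6 h level was 36.4 times the 0 h level (log2 fold change 5.18, SE 0.22, adjusted p = 1.03e-12), and at 72 h the fold was 17.9 (log2 fold change 4.16, SE 0.22, adjusted p = 2.89e-11, edgeR quasi-likelihood). A peak was called there in both 6 h and both 72 h libraries and in neither 0 h library. These calls held under each of the 5 scalings and without each library in turn.

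The share of the TAL1 locus reads taken by that site does not depend on scaling between libraries. It was 0.626% (0.420 to 0.898) and 0.480% (0.326 to 0.680) in the 0 h libraries, where the brackets give exact Clopper-Pearson 95% intervals that cover counting error only. At 6 h it was 18.8% (17.6 to 20.1) and 19.0% (18.3 to 19.8), and at 72 h 10.97% (10.3 to 11.6) and 13.4% (12.8 to 14.1). The intervals of the 3 time points did not overlap. From 6 to 72 h the site fell (log2 fold change −1.02, SE 0.17, adjusted p = 5.03e-05), a call that was not made under shared-peak factors (log2 fold change −0.35, adjusted p = 0.0665).

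A neighbouring pair of sites nearer the gene moved in different ways. The site at +19.0 kb (chr1:47212868-47213809) had 15.9 and 18.4 CPM at 0 h, 41.0 and 48.8 CPM at 6 h and 22.9 and 27.9 CPM at 72 h, so the 6 h libraries were highest and the groups did not overlap. It rose at 6 h (log2 fold change 1.39, SE 0.17, adjusted p = 9.14e-07) under all 5 scalings. Its 72 h level was also called higher than at 0 h (log2 fold change 0.57, SE 0.17, adjusted p = 0.00471), but not under RLE (adjusted p = 0.0524) and not without 72 h replicate 2 (adjusted p = 0.0995). The site at +20.3 kb (chr1:47211747-47212378) had 10.46 and 13.0 CPM at 0 h, 8.36 and 7.21 CPM at 6 h and 15.5 and 17.3 CPM at 72 h. It was lowest at 6 h and highest at 72 h, with a rise from 6 to 72 h (log2 fold change 1.09, SE 0.20, adjusted p = 0.000188) that held under all 5 scalings and without each library. Its fall at 6 h (log2 fold change −0.61) was not called under total counts or shared-peak factors or without the second 0 h library (adjusted p = 0.166) or the second 6 h library (adjusted p = 0.13).

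The broad site at +50.7 kb (chr1:47180858-47182493) was the most read TAL1 site at 0 h and moved the other way. Reads there came to 83.1 and 75.0 CPM at 0 h, 42.9 and 40.9 CPM at 6 h and 38.7 and 39.8 CPM at 72 h, and both 0 h libraries were above the other 4. It fell at 6 h (log2 fold change −0.92, SE 0.14, adjusted p = 1.69e-05) under all 5 scalings and without each library in turn. At 72 h it was lower under TMM (log2 fold change −1.01, SE 0.14, adjusted p = 1.43e-06), RLE and total counts, not called under shared-peak factors (log2 fold change −0.04) and higher under loess offsets (log2 fold change 0.42). Its share of the TAL1 locus reads went from 27.6% (26.3 to 28.9) and 24.3% (23.2 to 25.3) at 0 h to 13.7% (12.6 to 14.8) and 12.5% (11.9 to 13.2) at 6 h and 17.01% (16.2 to 17.8) and 15.4% (14.7 to 16.1) at 72 h. By this measure the +50.7 kb site held the largest of these shares at 0 h and a smaller one than the +24.3 kb site at 6 h.

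Between them lay sites of both directions. The site at +37.9 kb rose at 6 h (log2 fold change 1.15, adjusted p = 0.000428) and at 72 h (1.35, adjusted p = 2.26e-05), while its neighbour at +39.3 kb fell at 72 h (−1.44, adjusted p = 3.23e-06). All of these edgeR calls held under the 5 scalings. The site at +42.0 kb, near an end of PDZK1IP1, rose at 72 h (log2 fold change 1.46, adjusted p = 0.000117) from a level at 6 h that was not called changed (0.08, adjusted p = 0.86). Beyond the +50.7 kb site, the sites at +53.0, +51.8 and +58.3 kb were called lower at 72 h under TMM, and each lost that call under shared-peak factors. The first lost it under total counts (adjusted p = 0.307) and loess offsets (log2 fold change 0.21, adjusted p = 0.237) as well, and the second under total counts (adjusted p = 0.225). Their log2 fold changes were −0.69, −0.92 and −1.30, and those of the first and second were above 0 under shared-peak factors (0.28 and 0.05). The call at +51.8 kb also failed without 0 h replicate 1 (adjusted p = 0.069), 72 h replicate 1 (0.0606) or 72 h replicate 2 (0.0725). The site at +57.1 kb was not called against 0 h at either time, with log2 fold changes of −0.01 and 0.04, except that shared-peak factors called it higher at 72 h (1.01, adjusted p = 0.00106).

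The TAL1 start itself had reads that fell at each time on the TMM scale. The site over it (chr1:47231890-47232781) had 58.8 and 54.6 CPM at 0 h, 36.1 and 39.1 CPM at 6 h and 18.4 and 19.4 CPM at 72 h, with no overlap between the 3 groups. At 72 h the fitted level was 2.997-fold lower than at 0 h (log2 fold change −1.58, SE 0.15, adjusted p = 9.09e-09), under all 5 scalings and without each library. The fall at 6 h (log2 fold change −0.59, SE 0.15, adjusted p = 0.00262) was not called under loess offsets (adjusted p = 0.101) or shared-peak factors (adjusted p = 0.101). The fall from 6 to 72 h (log2 fold change −0.99, adjusted p = 1.74e-05 by edgeR) was not called under loess offsets (−0.09) or shared-peak factors (−0.32) either. The adjoining site over the second promoter window, at +1.0 kb (chr1:47230940-47231802), had 15.5 and 21.3 CPM at 0 h, 18.7 and 26.4 CPM at 6 h and 10.4 and 11.1 CPM at 72 h. Its 6 h libraries overlapped those at 0 h, and it was lower at 72 h (log2 fold change −0.78, SE 0.20, adjusted p = 0.00161) under TMM and RLE only, with a log2 fold change of 0.19 under shared-peak factors.

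Upstream of TAL1, the site at −7.2 kb fell from 6.50 CPM to 2.64 CPM at 6 h and 1.84 CPM at 72 h (means of 2 libraries, log2 fold changes −1.27 and −1.82, adjusted p = 0.00125 and 7.47e-06 by edgeR). Both calls held under the 5 scalings. The site at −9.5 kb (chr1:47241406-47242203) had 16.8 and 16.2 CPM at 0 h, 8.53 and 8.26 CPM at 6 h and 12.6 and 14.0 CPM at 72 h. It dipped at 6 h (log2 fold change −0.98, SE 0.19, adjusted p = 0.000378) under all 5 scalings and was higher again at 72 h than at 6 h (log2 fold change 0.66, adjusted p = 0.00776), a difference not called without 72 h replicate 2 (adjusted p = 0.0757). Against 0 h its 72 h level was not called under TMM (log2 fold change −0.31), total counts or loess offsets, was called lower under RLE (−0.49, adjusted p = 0.0251) and was called higher under shared-peak factors (0.65, adjusted p = 0.00269). Farther away, within STIL, which encodes a centriole protein, the site at −24.0 kb rose about alike at both times (log2 fold changes 2.35 and 2.39, SE 0.42 and 0.40, adjusted p = 0.00011 and 2.42e-05 by edgeR), from 0.701 CPM to 3.40 and 3.64 CPM. In all, 6 of the 24 TAL1 sites rose at 6 h (25%, against 23.4% of all tested sites) and 8 fell (33.3%, against 16.8%). At 72 h, 9 rose (37.5%, against 38.2%) and 11 fell (45.8%, against 29.2%).

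**Figure D2:**
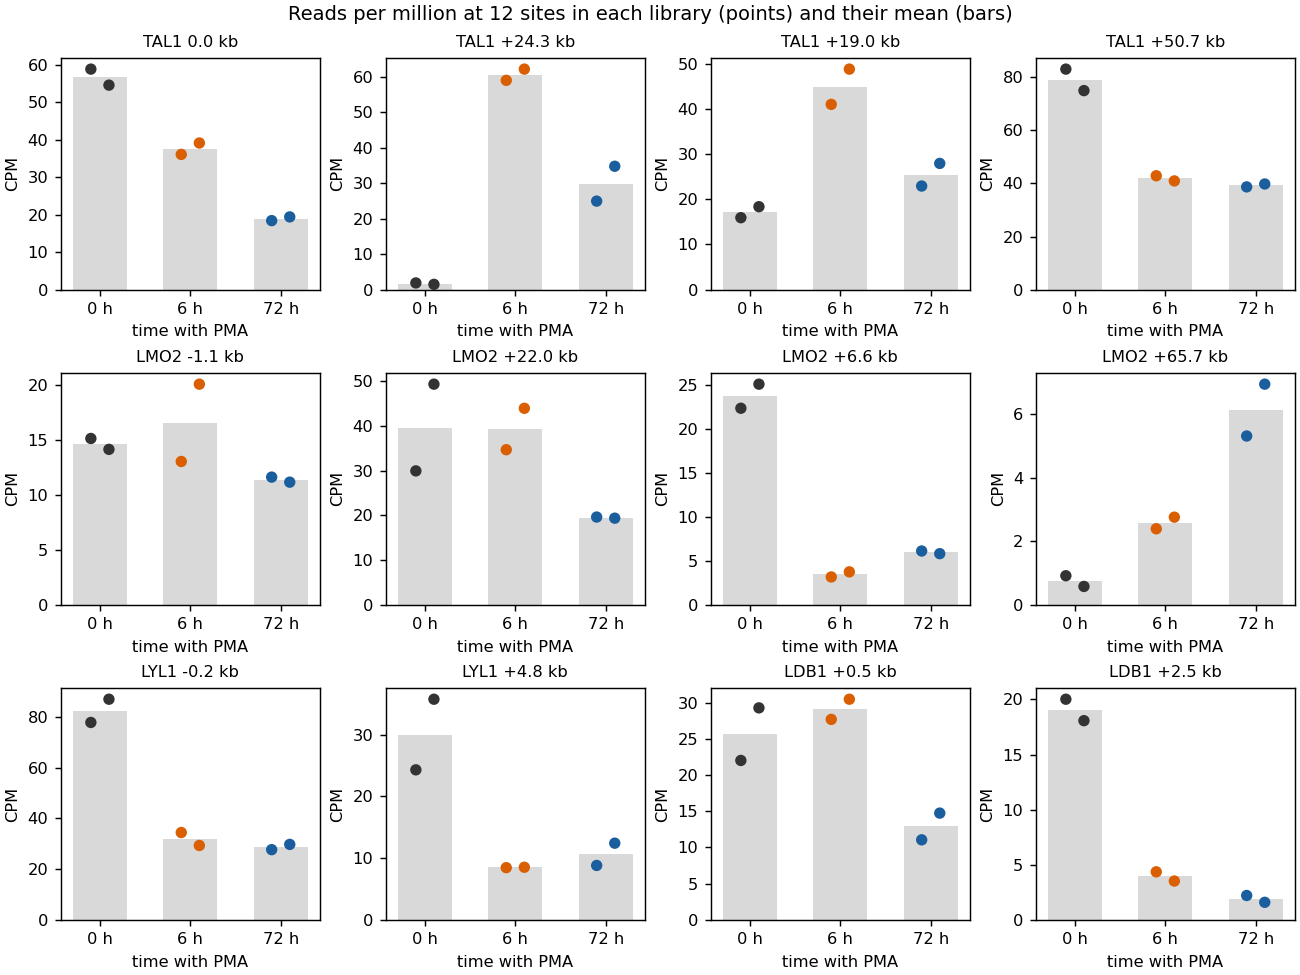
Reads in CPM on the TMM scale (vertical axes, each starting at 0) at 12 sites by hours with PMA (horizontal axes). Points are the 2 libraries of each time, grey bars their mean, and titles give the gene and the distance from its start. The +24.3 kb site of TAL1 is near 0 before treatment and highest at 6 h, while the sites at +6.6 kb of LMO2 and +2.5 kb of LDB1 are highest at 0 h.

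At LYL1, the helix-loop-helix relative of TAL1, the start site was the most read member site at 0 h per length, at 71.2 CPM per kb, against 63.5 CPM per kb at the TAL1 start. The site (chr19:13102435-13103593) had 77.9 and 87.1 CPM at 0 h, 34.5 and 29.3 CPM at 6 h and 27.7 and 29.8 CPM at 72 h, and both 0 h libraries exceeded the other 4. It was 2.60-fold lower at 6 h (log2 fold change −1.38, SE 0.15, adjusted p = 1.80e-07), under all 5 scalings and without each library in turn. At 72 h it was lower than at 0 h (log2 fold change −1.52, SE 0.15, adjusted p = 1.29e-08), except that loess offsets made no call (log2 fold change −0.19, adjusted p = 0.217). No difference between 72 h and 6 h was called under TMM (log2 fold change −0.15, SE 0.15, adjusted p = 0.44), and loess offsets and shared-peak factors called the site higher at 72 h than at 6 h (0.82 and 0.53).

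Sites downstream of LYL1 run into NFIX, a gene of the nuclear factor I family whose end lies close to that of LYL1. The site at +4.8 kb, near the ends of both genes (chr19:13097580-13098484), had 24.3 and 35.8 CPM at 0 h, 8.44 and 8.51 CPM at 6 h and 8.80 and 12.4 CPM at 72 h. The 0 h libraries were the highest 2 of the 6, and the calls at 6 h (log2 fold change −1.83, SE 0.22, adjusted p = 7.66e-07) and at 72 h (log2 fold change −1.504, SE 0.21, adjusted p = 1.74e-06) held under all 5 scalings. Inside NFIX, the site at +23.3 kb (chr19:13079187-13080017) had 10.7 and 16.3 CPM at 0 h, 5.12 and 4.49 CPM at 6 h and 1.55 and 1.56 CPM at 72 h and fell at each step, with no overlap between the 3 times. It was 8.69-fold lower at 72 h than at 0 h (log2 fold change −3.12, SE 0.26, adjusted p = 2.68e-09) and lower than at 6 h (log2 fold change −1.61, SE 0.27, adjusted p = 7.39e-05). The site at +51.1 kb, also in NFIX, fell by 6 h and had the same level at 72 h, with means of 11.5, 3.59 and 3.62 CPM (log2 fold changes −1.67 and −1.67, adjusted p = 9.82e-06 and 1.63e-06 by edgeR). The calls against 0 h at these NFIX sites held under the 5 scalings.

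Sites that rose at the LYL1 locus lay mainly upstream, within TRMT1, which encodes a tRNA methyltransferase, and NACC1, which encodes a BTB-domain transcriptional regulator. The site at −11.3 kb in TRMT1 (chr19:13113856-13114362) had 0.325 and 0.382 CPM at 0 h, 0.426 and 1.96 CPM at 6 h and 5.64 and 5.03 CPM at 72 h. Both 72 h libraries were far above the rest, and 6 h replicate 2 was above 6 h replicate 1. The rise at 72 h (log2 fold change 3.88, SE 0.48, adjusted p = 4.08e-07) held under all 5 scalings and without each library. At 6 h the call (log2 fold change 1.95, adjusted p = 0.00737) rested on 6 h replicate 2, without which the log2 fold change was 0.20 (adjusted p = 0.878). The next site, at −12.3 kb, had log2 fold changes of 2.11 at 6 h (1.02 without 6 h replicate 2, adjusted p = 0.157) and 2.71 at 72 h (adjusted p = 7.90e-06).

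Within NACC1, the site at −29.7 kb (chr19:13132177-13133016) peaked early, with 4.94 and 5.40 CPM at 0 h, 15.3 and 20.7 CPM at 6 h and 9.01 and 7.91 CPM at 72 h. The 6 h libraries were above all others (log2 fold change 1.81, SE 0.22, adjusted p = 1.22e-06), under the 5 scalings and without each library. It then fell from 6 to 72 h (log2 fold change −1.10, adjusted p = 0.000207; shared-peak factors gave −0.43 with no call). Its level at 72 h was above that at 0 h (log2 fold change 0.71, adjusted p = 0.00767), a call lost without 72 h replicate 1 (adjusted p = 0.0816). The most read site of the locus at 6 h was in IER2, an immediate early gene near the upstream edge of the window. It was not called changed at 6 h (log2 fold change −0.22) and was lower at 72 h (−1.41, adjusted p = 3.51e-08), though not under loess offsets (−0.15). Of the 27 LYL1 sites, 5 rose at 6 h (18.5%, against 23.4% of all tested sites) and 8 fell (29.6%, against 16.8%). At 72 h, 6 rose (22.2%, against 38.2%) and 18 fell (66.7%, against 29.2%).

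LMO2, the adaptor of the complex, had the fewest sites called at 6 h, 4 of 21 (19%, against 40.1% of all tested sites). Of these, 3 rose (14.3% of the 21, against 23.4%) and 1 fell (4.76%, against 16.8%). At 72 h, 6 rose (28.6%, against 38.2%) and 10 fell (47.6%, against 29.2%). The site that fell at 6 h lies inside the gene at +6.6 kb (chr11:33885147-33885862) and had 22.4 and 25.1 CPM at 0 h, 3.16 and 3.73 CPM at 6 h and 6.11 and 5.81 CPM at 72 h. The 0 h libraries stood well above the other 4, and the 72 h libraries were above the 6 h libraries. It was 6.77-fold lower at 6 h (log2 fold change −2.76, SE 0.22, adjusted p = 3.09e-09), 3.99-fold lower at 72 h (log2 fold change −1.99, SE 0.20, adjusted p = 2.32e-08) and rose in part from 6 to 72 h (log2 fold change 0.76, SE 0.22, adjusted p = 0.00752). Each of these 3 calls held under all 5 scalings, with DESeq2 and without each library in turn.

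The other intragenic site of LMO2 with many reads, at +22.0 kb (chr11:33868899-33871162), had 30.0 and 49.4 CPM at 0 h, 34.7 and 44.0 CPM at 6 h and 19.6 and 19.4 CPM at 72 h. Its 0 h and 6 h libraries overlapped (log2 fold change −0.01, SE 0.19), and the 72 h libraries were below both. The fall at 72 h (log2 fold change −1.03, SE 0.19, adjusted p = 6.40e-05) was not called under loess offsets (log2 fold change 0.14) or shared-peak factors (−0.05). LMO2 is known to have an internal promoter as well, but the gene table used here gives no position for it, and the site was not assigned to it.

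The LMO2 start carried a pair of sites that gave few calls. The site at +0.2 kb (chr11:33891294-33892372) had 13.6 and 12.6 CPM at 0 h, 14.8 and 19.0 CPM at 6 h and 9.40 and 9.44 CPM at 72 h, and the site at −1.1 kb (chr11:33892724-33893557) had 15.1 and 14.2 CPM at 0 h, 13.0 and 20.1 CPM at 6 h and 11.6 and 11.2 CPM at 72 h. Neither was called at 6 h under TMM (log2 fold changes 0.38 and 0.20, SE 0.19 and 0.20). The first was called higher at 6 h under shared-peak factors (0.67, adjusted p = 0.00775) and total counts (0.51, adjusted p = 0.0364). At 72 h the first was called lower under TMM (log2 fold change −0.48, SE 0.19, adjusted p = 0.0338), with log2 fold changes of 0.02 for total counts, 0.06 for loess offsets and 0.49 for shared-peak factors, which called it higher. That call also failed without 0 h replicate 1 (adjusted p = 0.0912), 72 h replicate 1 (0.13) or 72 h replicate 2 (0.133). The second was not called under TMM (log2 fold change −0.36, adjusted p = 0.118), was called lower under RLE (−0.54, adjusted p = 0.0258) and was called higher under shared-peak factors (0.61, adjusted p = 0.0102).

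Of the 6 LMO2 sites that rose by 72 h, 4 lay far downstream between genes, where 4 others fell, and 2 lay upstream. The upstream rises were at −7.3 kb, where means went from 7.36 to 12.9 and 11.2 CPM, and at −35.1 kb, where they went from 6.03 to 6.36 and 10.7 CPM. Their 72 h log2 fold changes were 0.61 and 0.83 (adjusted p = 0.0102 and 0.00212 by edgeR), the first of them not called under RLE or without 72 h replicate 1 (adjusted p = 0.0641) or 72 h replicate 2 (0.0664). The site at +65.7 kb (chr11:33826045-33826675) had 0.910 and 0.574 CPM at 0 h, 2.39 and 2.75 CPM at 6 h and 5.31 and 6.94 CPM at 72 h, with each time above the one before and no overlap. It was 3.59-fold higher at 6 h (log2 fold change 1.84, SE 0.38, adjusted p = 0.000484) and 8.42-fold higher at 72 h (log2 fold change 3.07, SE 0.35, adjusted p = 1.11e-07), under all 5 scalings and without each library. The sites at +59.4 and +72.6 kb also rose by 72 h (log2 fold changes 2.32 and 2.08, adjusted p = 0.000186 and 2.06e-05 by edgeR). Their levels stayed low, with 72 h means of 2.08 and 4.02 CPM. The site at +62.2 kb, between them, moved the other way at 72 h (log2 fold change −1.48, adjusted p = 0.00892), with no call under total counts or shared-peak factors or without 72 h replicate 2 (adjusted p = 0.128).

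At LDB1, which links complexes to one another, nearly all calls on the TMM scale were falls. Of its 18 sites, 11 fell (61.1%) and 1 rose (5.56%) at 6 h. The same numbers were called at 72 h and for 72 h against 6 h. Of all tested sites, 16.8% fell and 23.4% rose at 6 h, and 29.2% fell and 38.2% rose at 72 h. For 72 h against 6 h these shares were 20.9% and 22.1%. With shared-peak factors, 5 sites rose and 9 fell at 72 h, where that scaling gave 12 rises and 4 falls at TAL1, 13 and 1 at LMO2 and 8 and 6 at LYL1. Shares of rises and falls over all tested sites were not computed under that scaling. At 72 h, 6 of the falls and none of the rises held under all 5 scalings. The site called higher than at 0 h, at −44.9 kb in NOLC1, had a mean under 1 CPM at every time. The site called higher at 72 h than at 6 h was the one with 2 reads at 6 h that is described below.

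The steepest fall among LDB1 sites with a mean above 1 CPM over the 6 libraries lay inside the gene at +2.5 kb (chr10:102112183-102112841), which had 20.02 and 18.1 CPM at 0 h, 4.35 and 3.51 CPM at 6 h and 2.20 and 1.58 CPM at 72 h. All 4 treated libraries were far below the 0 h libraries, and the groups did not overlap. The site was 4.93-fold lower at 6 h (log2 fold change −2.30, SE 0.24, adjusted p = 1.45e-07) and 10.1-fold lower at 72 h (log2 fold change −3.33, SE 0.25, adjusted p = 5.71e-10), under all 5 scalings and without each library. A peak was called there in both 0 h libraries and in none of the others. The further fall from 6 to 72 h (log2 fold change −1.03, adjusted p = 0.0029) was not called under shared-peak factors (adjusted p = 0.276) or without 72 h replicate 2 (adjusted p = 0.0951).

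The LDB1 start site beside it, at +0.5 kb (chr10:102113724-102115322), had 22.0 and 29.3 CPM at 0 h, 27.7 and 30.5 CPM at 6 h and 11.1 and 14.7 CPM at 72 h. The 0 h and 6 h libraries overlapped, and no change was called at 6 h under TMM (log2 fold change 0.18, SE 0.18, adjusted p = 0.453), though shared-peak factors called it higher (0.48, adjusted p = 0.0324). It was lower at 72 h than at 0 h (log2 fold change −0.99, SE 0.18, adjusted p = 6.71e-05), but not under loess offsets (−0.07) or shared-peak factors (−0.03), and lower than at 6 h (log2 fold change −1.18, SE 0.18, adjusted p = 3.18e-05) under all 5 scalings. At 6 h the means per site were thus 29.1 CPM over the start and 3.93 CPM at +2.5 kb, from 25.7 and 19.0 CPM at 0 h. Upstream, the RefSeq interval of LDB1 reaches chr10:102121442, beyond the start at chr10:102115002 that its promoter window gives and that is used here. A site near that upstream end, at −5.9 kb, also lies near an end of another gene. It was called lower under TMM at 6 h (log2 fold change −0.57) and at 72 h (−1.33). Neither call was made under loess offsets or shared-peak factors. Farther out, the site at +56.9 kb fell at both times (log2 fold changes −1.04 and −1.84, adjusted p = 0.000134 and 3.36e-08 by edgeR) under the 5 scalings.

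The most read LDB1 locus sites lay in or near neighbouring genes. They were at −17.9 kb in PPRC1, which encodes a coactivator, and at −37.0 kb near an end of NOLC1, which encodes a nucleolar protein. Both were lower at 72 h (log2 fold changes −1.46 and −1.43, adjusted p = 3.80e-08 and 3.43e-08), with no call under loess offsets (−0.30 and −0.25). The site at −48.6 kb near the end of NOLC1 fell at 6 h (log2 fold change −1.31, adjusted p = 0.00614, and 0.0522 without 0 h replicate 2), and its 72 h level was not called different from 0 h (−0.66, adjusted p = 0.077), except that RLE (−0.84) and loess offsets (−1.24) called it lower. A site at +12.5 kb inside LDB1 had 1 read in each 6 h library, against 12 reads at 0 h and 40 at 72 h. Its 72 h to 6 h ratio was 10.7 with an exact 95% interval of 2.77 to 91.4 that covers counting error only, and no library had a peak there.

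Summed over each locus, reads were lowest relative to 0 h at LYL1 at 6 h and at LDB1 at 72 h. Its 18 sites held 321.9 ± 35.4 CPM at 0 h, 231.1 ± 11.4 CPM at 6 h and 122.8 ± 6.28 CPM at 72 h (mean ± SD, n = 2), which is 0.718 and 0.382 times the 0 h level. The LYL1 sum went to 0.690 and 0.497 times its 0 h level, the LMO2 sum to 0.971 and 0.747, and the TAL1 sum to 1.05 and 0.797. These ratios move with the scaling, and at 72 h they ran from 0.703 to 1.56 at TAL1, 0.658 to 1.46 at LMO2, 0.438 to 0.973 at LYL1 and 0.336 to 0.747 at LDB1. In each of the 4 scalings the 72 h ratio was highest at TAL1 and lowest at LDB1. The sums are described and were not tested.

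**Figure D3:**
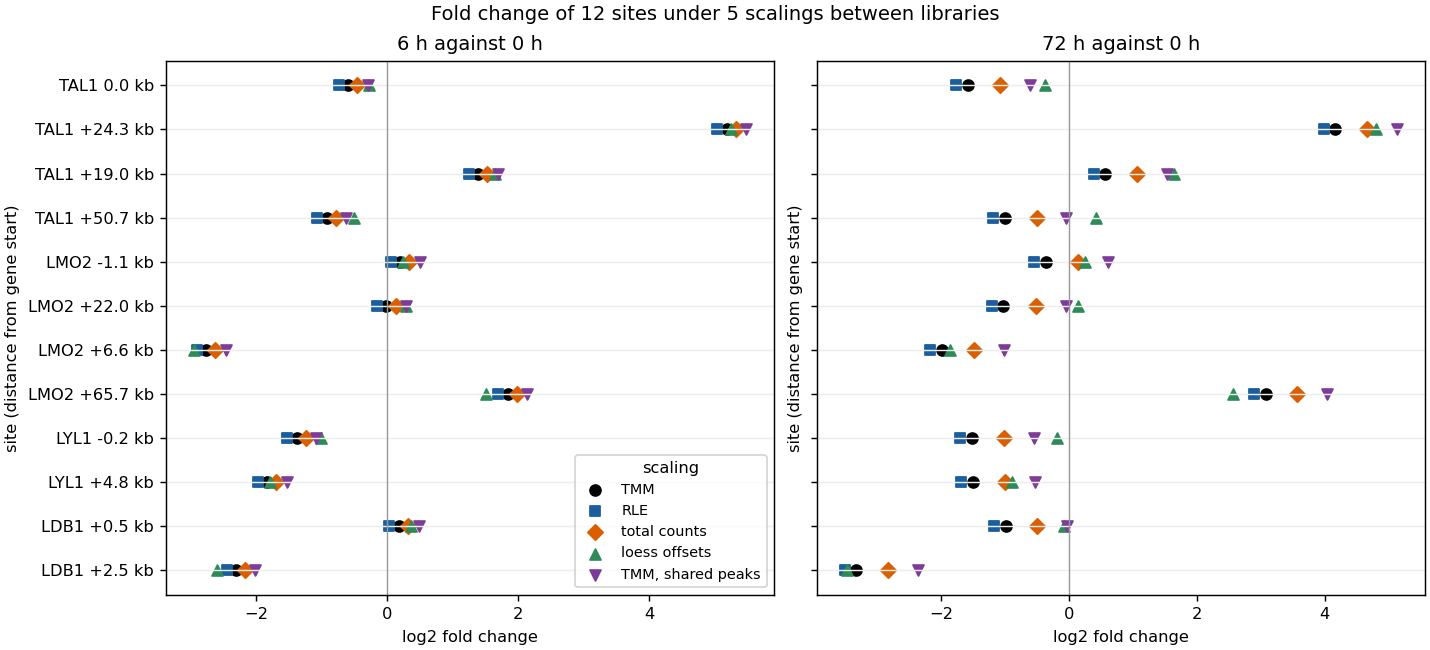
Log2 fold change (horizontal axes) of 12 sites (vertical axis, gene and distance from its start) under 5 scalings between libraries, at 6 h (left) and 72 h (right) against 0 h. The symbols of a site lie closer together at 6 h than at 72 h. At 72 h the site at +50.7 kb of TAL1 and those at −1.1 and +22.0 kb of LMO2 have symbols on both sides of 0, while +24.3 kb of TAL1 stays above 0 and +2.5 kb of LDB1 below it.

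The start sites were set beside those of all protein-coding genes, taking the strongest site of each gene, because falls were common among them. Start sites had to overlap a promoter window, except those of LMO2, which were taken within 1 kb of the gene start. On the TMM scale, 48.4% of 10064 such start sites were called lower at 6 h and 87.1% at 72 h. Their median log2 fold changes were −0.42 and −1.33. Under RLE, total counts, loess offsets and shared-peak factors, 65.9%, 29.3%, 22.8% and 10.7% were lower at 6 h. At 72 h these shares were 88.9%, 77.5%, 45.6% and 48.5%. The 72 h median was −0.32 under loess offsets and −0.36 under shared-peak factors. The ranks that follow were computed on the TMM scale only. At 6 h the LYL1 start (log2 fold change −1.38) lay lower than nearly all start sites: 1.12% of them had a lower value. The TAL1 start (−0.59) had 24.2% of start sites below it. The second TAL1 start site, the LMO2 sites and the LDB1 start lay towards the upper end, with 92.9% below the second TAL1 site, 93.7% and 91.4% below the LMO2 sites at +0.2 and −1.1 kb, and 91.0% below LDB1.

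At 72 h the same ranks were 22.0% for TAL1, 83.2% for its second start site, 88.2% and 89.5% for LMO2, 27.7% for LYL1 and 75.8% for LDB1. All 6 start sites of the members therefore lay between the 10th and the 90th percentile of gene starts at 72 h (−1.74 and −0.31), also those of TAL1 (−1.58) and LYL1 (−1.52), which fell most. At 6 h these percentiles were −0.75 and 0.12, with LYL1 below them, the TAL1 site over its first window between them and the other 4 above them. Of the 23 members within 1 kb of either end of a coding gene, 10 (43.5%) fell and 0 rose at 6 h. At 72 h, 16 of them (69.6%) fell and 2 (8.70%) rose. Among all tested sites so placed, 36.2% fell and 9.96% rose at 6 h, and 68.7% fell and 12.3% rose at 72 h. The shares were thus close at 72 h. The other 67 members had 18 falls (26.9%) and 15 rises (22.4%) at 6 h and 34 falls (50.7%) and 20 rises (29.9%) at 72 h. Among all tested sites away from gene ends, 14.4% fell and 25.0% rose at 6 h, and 24.5% fell and 41.3% rose at 72 h. For the position classes that follow, shares over all tested sites were not computed. Of the 34 members between genes, 8 fell (23.5%) and 7 rose (20.6%) at 6 h. At 72 h, 14 of them fell (41.2%) and 11 rose (32.4%). Another class held 8 sites inside one of the 4 genes, away from its start and from the ends of other genes. Of these, 5 fell (62.5%) and 1 rose (12.5%) at 6 h, and 6 fell (75%) and 1 rose (12.5%) at 72 h. The one that rose is the TAL1 site at +4.6 kb, named because it is alone in this group, which went from 2.08 CPM at 0 h to 5.82 and 4.79 CPM (log2 fold changes 1.496 and 1.19, adjusted p = 0.000274 and 0.000886 by edgeR).

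**Figure D4:**
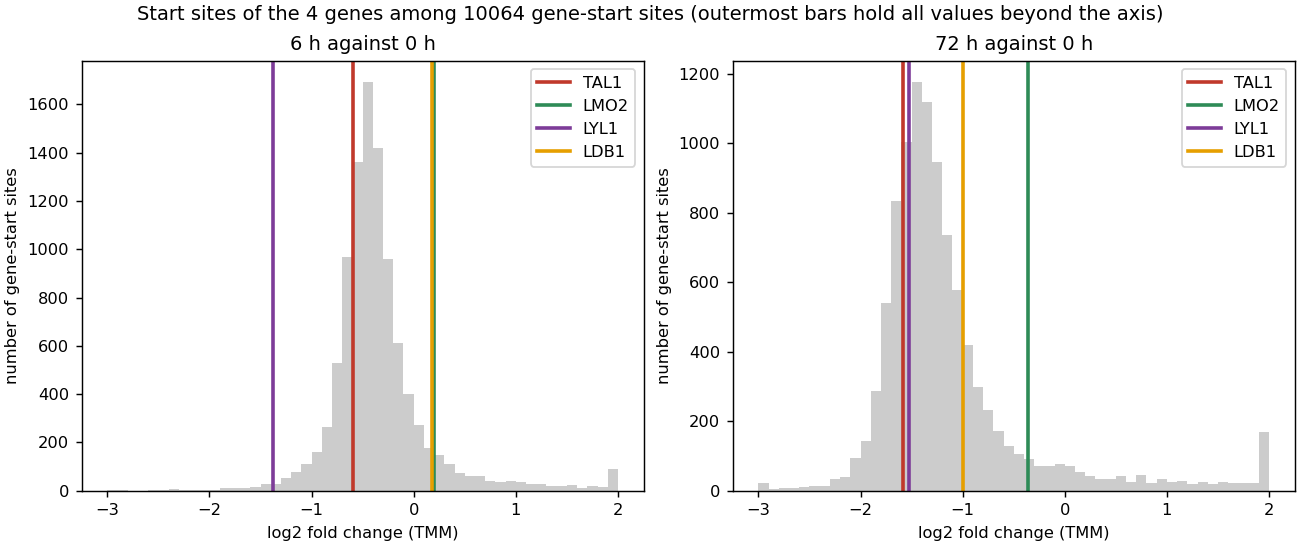
Number of gene-start sites (vertical axes) by log2 fold change on the TMM scale (horizontal axes) at 6 h (left) and 72 h (right) against 0 h, for 10064 sites, with values beyond the axis counted in the outermost bars. Lines mark the most read start site of each member, and the LMO2 and LDB1 lines nearly coincide at 6 h. The LMO2 site was taken within 1 kb of the gene start, the others by overlap with a promoter window. The LYL1 line is in the lower tail at 6 h (1.12% of sites lower) and near the bulk at 72 h (27.7% lower).

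Other genes of the pathway were described by their start sites. Among 23 partners and family members, 16 had a site at their start, of which 11 fell at 6 h and 15 at 72 h, beside 48.4% and 87.1% of all start sites lower. Under the other 4 scalings 5 to 12 of the 16 fell at 6 h and 7 to 15 at 72 h, with loess offsets giving 7. Under these scalings 10.7% to 65.9% of all start sites were lower at 6 h and 45.6% to 88.9% at 72 h. At 72 h, 1 of the 16 sites was called higher with loess offsets (RUNX1, 0.38) and 1 with shared-peak factors (CBFA2T2, 1.06). RUNX1 encodes the runt-domain factor that works beside the complex. GATA1, the erythroid GATA factor of the complex, fell from 13.1 ± 0.487 CPM at 0 h to 3.21 ± 0.561 CPM at 6 h and 4.95 ± 0.620 CPM at 72 h (SD, n = 2, log2 fold changes −1.99 and −1.41, adjusted p = 1.14e-06 and 1.19e-05 by edgeR), and its 72 h call was lost with shared-peak factors (−0.44, adjusted p = 0.0867). GATA2, which precedes GATA1 in blood development, was not called at 6 h (log2 fold change −0.19, adjusted p = 0.319) and fell at 72 h (−1.53, adjusted p = 1.37e-08), with no call under loess offsets (−0.22, adjusted p = 0.149). SSBP4, of the family that stabilises LDB1, had log2 fold changes of −1.57 and −1.76 (adjusted p = 1.46e-05 and 6.10e-07). The exception at 72 h was CBFA2T2, a corepressor gene, with a log2 fold change of 0.09 (adjusted p = 0.834).

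Over all gene-start sites on the TMM scale, 48.4% were called lower at 6 h and 87.1% at 72 h, with medians of −0.42 and −1.33. These shares and medians are the background for the genes below. ID1, ID2 and ID3, whose proteins take E proteins away from TAL1, had start sites that fell at 6 h (log2 fold changes −0.44, −0.69 and −0.60) and at 72 h (−1.41, −1.17 and −1.40). No site was listed at the ID4 start. The 6 h falls were not called with shared-peak factors at any of the 3, and with loess offsets only that of ID2 was called (−0.52). With total counts that of ID1 was lost (adjusted p = 0.117). With shared-peak factors ID1 and ID3 were the ones still called lower at 72 h (−0.44 each), and with loess offsets ID1 alone (−0.42). Among erythroid genes known as targets of the complex, EPB42, GFI1B and SLC4A1 had start sites that fell at both times, except that SLC4A1 was not called at 72 h with shared-peak factors (−0.41). Their log2 fold changes at 72 h against 0 h were −2.85 for EPB42, which encodes a membrane skeleton protein, −1.84 for GFI1B, which encodes a repressor, and −1.37 for SLC4A1, which encodes the band 3 anion exchanger. SLC4A1 was higher again at 72 h than at 6 h (log2 fold change 0.95, adjusted p = 0.0136 by edgeR). The K562 markers HBG1, HBE1 and EPOR fell at both times as well, with 72 h log2 fold changes from −2.80 to −1.39. The calls of EPOR at 72 h with loess offsets (−0.31) and HBE1 at 6 h with shared-peak factors (−0.85) were lost. PTPRC and COL1A1, taken for comparison, were also lower at 72 h on the TMM scale (−1.48 and −0.66, adjusted p = 0.00216 and 0.0018 by edgeR) and not called with shared-peak factors. COL1A1 was not called with total counts or loess offsets either, where its loess value was 0.15. The erythroid markers' part in the changes at the 4 loci was not tested.

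Start sites most like those of the members in shape over the 6 libraries were found among 9807 other start sites by the root mean square difference of centred log2 CPM. For TAL1 these were the site shared by BUD23 and DNAJC30 (0.0210) and that of MTG2 (0.0294), and for LMO2 those of BCO2 (0.0414) and SNPH (0.0805). For LYL1 they were AGAP3 (0.0913) and CTDSP1 (0.118), and for LDB1 ANTXR2 (0.0631) and RNF181 (0.0751). The 0 h, 6 h and 72 h libraries are shared by all sites, so these are descriptions.

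Peaks called by the authors in each library overlapped the sites by at least 1 base as follows. A peak was present in all 6 libraries at 33 of the 90 sites and in none at 5. Of the 181135 listed sites, 35800 had a peak in all 6 libraries. At 20 sites (22.2%, against 33.7% of all tested sites) both 72 h libraries and neither 0 h library had a peak, with 8 at TAL1, 5 at LMO2, 5 at LYL1 and 2 at LDB1. At 4 sites (4.44%, against 2.44%) both 0 h libraries and neither 72 h library had one. Over the genome the authors' lists held 61873 and 69152 peaks at 0 h and 138914 and 142305 at 72 h. The 0 h libraries had a peak at 47 and 55 of the sites, the 6 h libraries at 45 and 64, and the 72 h libraries at 65 and 68. The 6 h libraries, which differed most in this number, also differed most in depth.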

How the data were processed

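The authors deposited a table of raw read counts per site and library, together with their own log2 fold changes, adjusted p-values and a class name per site, and a peak list per library. Per the file headers and values, counts are whole numbers with different totals per library. Each peak list has no header, follows the narrowPeak layout and was called per library. The authors' score, fold enrichment and −log10 q in these lists served only to say where peaks lie. Per the submitters' processing notes, the build was hg38 and the tools were Trim Galore 0.4.3, BWA 0.7.17, SAMtools 1.9, deepTools 3.0.1, MACS2, bedtools 2.26 and DESeq. Their settings, and whether read ends were shifted for Tn5 insertion, are not given in the sources used here.

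Counts were fitted with edgeR 4.0.16 in R 4.3.3 (TMM, default filter with a minimum of 10 counts, quasi-likelihood F test, 3 time groups over all 6 libraries, Benjamini-Hochberg adjustment over 177759 sites), and all 90 members passed the filter. The fit was tested on simulated counts. The biological coefficient of variation was 0.166, and replicates differed by more than sampling noise (chi-square per degree of freedom 5.52, 4.69 and 3.54 at 0, 6 and 72 h). CPM relate counts to the TMM-scaled library. DESeq2 1.42.0, other scalings (with limma 3.58.1 for loess), no filter, a stricter threshold, a 10 kb reach and leaving out each library were the alternatives.

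Coordinates are those of the table (GRCh38), made 1-based. Gene intervals are from a RefSeq table of GRCh38.p14 that gives no exons, so sites are placed only as over a gene start, within 1 kb of a gene end, inside a gene or between genes. Promoter windows gave strand and start for TAL1, LYL1 and LDB1, and the LMO2 strand is general knowledge. The same holds for listed genes without a window, among them SSBP4, HBG1, HBE1, SLC4A1, CD3E and COL1A1. For these genes and LMO2, sites within 1 kb of the gene start were taken as start sites. The members and gene lists were chosen with earlier results of these data known. Some genes of the marker and target lists are not reported here. Sites are named by rule: gene starts, the most read sites, the 2 largest rises and falls per locus and time with a mean of at least 1 CPM, TAL1 sites beyond its 3′ end with at least 2 CPM, and sites with opposite early and late calls. Any other site that is named was chosen after its values were seen.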

Additional observations from a re-analysis of the deposited data

How the results depend on the processing

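The scaling between libraries turned directions. Signs turned, with a call on at least one side, at 72 h against 0 h under loess offsets at +22.0 kb of LMO2 (0.14), +0.2 kb of LMO2 (0.062), +53.0 kb of TAL1 (0.21) and +50.7 kb of TAL1 (0.42), under total counts at +0.2 kb of LMO2 (0.022), and under shared-peak factors at +0.2 kb (0.49) and −1.1 kb of LMO2 (0.61) and at +53.0 (0.28), +51.8 (0.049), +1.0 (0.19) and −9.5 kb (0.65) of TAL1. At 72 h against 6 h they turned under loess offsets at −1.1 kb of LMO2 (0.011), +53.0 kb (0.47) and +50.7 kb (0.93) of TAL1 and the LYL1 start (0.82), and under shared-peak factors at −1.1 kb of LMO2 (0.11), +53.0 kb (0.41) and +50.7 kb (0.58) of TAL1, +51.1 kb of LYL1 (0.67) and the LYL1 start (0.53). Values are log2 fold changes. Over the 42 named sites and all their alternatives, 1539 of 1764 values kept their side of the threshold, 166 lost a call, 39 gained one and 20 turned. A turned sign was counted only where the value was called on the TMM scale or under the alternative.

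Counts of called members at 6 h, 72 h and 72 h against 6 h were 19, 27 and 17 within 10 kb of the genes (higher 4, 5 and 4; lower 15, 22 and 13). When a call needed an adjusted p under 0.01 together with a log2 fold change beyond 1 in size, they were 23 at 6 h (12 lower) and 21 at 72 h against 6 h (6 higher, 15 lower). Shared-peak factors gave 25 higher and 15 lower sites at 6 h, 38 higher and 20 lower at 72 h, and 32 higher and 8 lower at 72 h against 6 h. At 72 h against 6 h, total counts gave 21 higher and 22 lower, and loess offsets 33 in all with 16 lower. Leaving out each library gave 35 to 42 calls at 6 h (9 to 18 higher, 18 to 29 lower), 57 to 74 at 72 h (17 to 24 higher, 40 to 51 lower), 30 to 52 at 72 h against 6 h (7 to 13 higher, 23 to 39 lower) and 63 to 78 over the time course. For these alternatives, shares of all tested sites called higher or lower were not computed.

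Locus sums at 6 h over 0 h under RLE, total counts and shared-peak factors were 0.946, 1.15 and 1.29 at TAL1 and 0.622, 0.758 and 0.848 at LYL1, and under shared-peak factors 1.19 at LMO2 and 0.883 at LDB1. At 72 h over 0 h they were 0.703, 1.13 and 1.56 at TAL1, 0.658, 1.06 and 1.46 at LMO2 and 0.438, 0.704 and 0.973 at LYL1, and 0.540 and 0.747 at LDB1 under total counts and shared-peak factors. Leaving out each library, an alternative chosen after seeing the data, gave 1.03 to 1.07 and 0.746 to 0.849 at TAL1, 0.904 to 1.04 and 0.716 to 0.781 at LMO2, 0.654 to 0.731 and 0.471 to 0.527 at LYL1, and 0.666 to 0.778 and 0.354 to 0.414 at LDB1, with the 6 h ratio first. Sums under loess offsets were not computed. Requiring a −log10 q of at least 5 left 33 sites with a peak in all libraries, and 50% cover left 23. With the replicate number as a replicate block, the calls numbered 47 (6 h), 73 (72 h) and 51 (72 h against 6 h), and 0 calls were lost. The labels state no pairing of the libraries. Deviations of same-numbered libraries correlated weakly, by 0.08, 0.05 and 0.09, which cannot show whether they were paired.

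With 2 libraries per time, and 12258890 counts in the shallower 6 h library, sites of few reads carry wide errors: the +12.5 kb LDB1 site had 2 reads at 6 h. Levels at different times are known only relative to a scaling. The gene table places no exons, and the sites' own sequences were not used.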

Other observations

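The authors' deposited table carries a class name for each site, and its relation to the members' values could not be read from the name alone. Among the 90 members, 78 were classed static, 7 upLate, 3 downEarly and 2 upEarly. The +24.3 kb TAL1 site was upEarly, with log2 fold changes of 5.02 at 6 h and 3.96 at 72 h in the authors' deposited table, and the +6.6 kb LMO2 site was downEarly with −2.88 and −2.14. The +50.7 kb TAL1 site was static with −1.04 and −1.18 and an adjusted p of 2.33e-20. Of the 7 upLate members, 3 had a 72 h log2 fold change below 0 in the authors' deposited table, among them the +23.3 kb site at LYL1 (−3.24) and the −47.9 kb site at TAL1 (−3.19). Over the whole of the authors' deposited table, 28.9% of 21243 upLate sites had a 72 h value below 0. The median 72 h log2 fold change in that table was 2.257 for downEarly, 2.30 for downLate, 2.261 for upEarly and 2.28 for upLate sites.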
